A study of Homo sapiens with 2 samples.

Results

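The genes described here are 8 genes that move zinc and iron across membranes, store iron or set its supply: the zinc transporters SLC30A1, SLC39A10 and SLC39A14, the ferritin subunits FTH1 and FTL, the transferrin receptor TFRC, the iron exporter SLC40A1 (ferroportin) and HAMP, which encodes hepcidin. Their members are the exon rows on a given strand inside 8 hg19 windows, and 61 of the 239322 exon rows in the files lay in them. The cells were Huh-7, a human hepatocellular carcinoma line. One group (control) had been kept for 24 h in 0.1% DMSO and the other for 24 h in 0.1 mM BS008, a derivative of the diuretic amiloride, and the labels of the BS008 group name no vehicle. Each condition was 1 library of the same line, so no spread between cultures could be measured, no test was made, and every interval below covers the counting of reads only. The study was designed to examine alternative splicing after BS008.

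Zinc leaves the cytosol through transporters of the SLC30 family and enters it through those of the SLC39 family, and the transcription factor MTF1 reads free zinc and binds metal response elements in the promoters of metallothionein genes and of SLC30A1. Iron is taken up as transferrin through TFRC, stored in a shell of FTH1 and FTL, and exported through SLC40A1, which circulating hepcidin removes from the membrane. Iron regulatory proteins bind hairpins called iron-responsive elements when iron is scarce. Bound in the 5′ UTR they block translation of ferritin and ferroportin mRNA, and bound in the 3′ UTR they protect TFRC mRNA from decay.

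The iron-responsive elements of the members are shown because they decide which of these mRNAs the iron regulatory proteins bind. A hairpin was searched for as a C, 5 bases, the loop CAGTGN with a last base other than G, and 5 bases that pair with the first 5, G-T pairs allowed. It was found in the 5′ UTR of FTH1, FTL and SLC40A1 and 4 times in the 3′ UTR of TFRC, in 1 coding transcript per gene of GENCODE release 29 (GRCh38). The transcripts of SLC30A1, SLC39A10, SLC39A14 and HAMP held no match. Hairpins that depart from this pattern were not searched for, so a gene may hold more elements than are shown. Of all genes with a UTR in that release, taken over all their coding transcripts, 0.136% held a match in the 5′ UTR and 0.531% in the 3′ UTR. The sequences run 5′ to 3′ along the mRNA, with T for U and the loop in capitals.
FTH1 5′ UTR (chr11:61967574-61967602, minus strand): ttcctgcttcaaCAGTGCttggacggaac
FTL 5′ UTR (chr19:48965335-48965363, plus strand): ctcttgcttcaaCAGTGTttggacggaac
SLC40A1 5′ UTR (chr2:189580661-189580689, minus strand): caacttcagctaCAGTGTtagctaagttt
TFRC 3′ UTR, element 1 (chr3:196050979-196051007, minus strand): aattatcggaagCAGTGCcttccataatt
TFRC 3′ UTR, element 2 (chr3:196050575-196050603, minus strand): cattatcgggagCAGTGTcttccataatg
TFRC 3′ UTR, element 3 (chr3:196050510-196050538, minus strand): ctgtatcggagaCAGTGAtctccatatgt
TFRC 3′ UTR, element 4 (chr3:196050463-196050491, minus strand): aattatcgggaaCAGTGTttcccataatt
The hairpins of FTH1 and FTL were identical at 26 of 29 bases, and the 4 matches in TFRC at 18 to 25 of 29 bases in pairs. The rows that hold these UTRs are described with each gene.

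The promoters bear on the zinc genes. The core of the metal response element was searched for as TGCACNC or TGCGCNC on both strands, from 250 bases before to 50 after each RefSeq start (GRCh38.p14), where 29.55% of 35116 promoters held at least 1 match and 8.60% at least 2, overlapping matches included. RefSeq promoters were at hand for 6 of the 8 members. SLC30A1 held 2 matches and SLC39A10 held 1, which lay downstream of the start in the second of 2 listed promoters. The last 150 bases before the start of SLC30A1 and a stretch downstream of each start are shown, with the core in capitals, which in SLC30A1 reads on the opposite strand. The RefSeq start of SLC30A1 lies 419 bases upstream of the one in GENCODE.
SLC30A1 upstream (chr1:211579162-211579311, minus strand): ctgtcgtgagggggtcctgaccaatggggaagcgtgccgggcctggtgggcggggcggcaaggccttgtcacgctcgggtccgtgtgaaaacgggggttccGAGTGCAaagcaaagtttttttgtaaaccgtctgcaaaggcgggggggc
SLC30A1 downstream (chr1:211579121-211579147, minus strand): agaccgggccGAGTGCAgctgccgtgg
SLC39A10 downstream (chr2:195657249-195657275, plus strand): ggagaggagaTGCACACggcactcgag
TFRC held 3 matches, of which 2 overlapped, SLC40A1 held 2, and FTL and HAMP held none. A match is a description of the letters in this window, and binding was not measured.

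The libraries held 55476654 (control) and 53578432 (BS008) counts on exons. Rows of mitochondrial genes took 11.81% and 13.09% of them. Of the hepatocyte markers, ALB, AFP, APOA1, APOB and SERPINA1 all had at least 21372 reads in each library, while the leukocyte gene PTPRC had 0 reads in both and the fibroblast gene COL1A2 had 0 and 2. APOB, the protein of very-low-density lipoprotein, was the marker that differed most, with 478822 counts in control and 213405 in BS008. The median log2 ratio over all rows with at least 10 counts was -0.041.

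Among the 8 genes, SLC30A1 was 8.72-fold higher in BS008-treated cells and SLC39A10 was 4.98-fold lower, while the other 6 differed by less than 2-fold. Of these 6, HAMP (1.97, interval 1.63 to 2.38) and SLC40A1 (1.75, 1.52 to 2.01) had counting intervals that reach past 2-fold. Ratios are BS008 over control on CPM, counts scaled to a common library total, and log2 ratios carry a pseudocount of 0.5 CPM. A row was counted for a 2-fold difference if it had at least 10 counts in either library. Of the 61 member rows, 55 reached that minimum, 2 were higher and 3 were lower by 2-fold or more. Over all 131330 rows with enough reads, 3.73% were higher and 3.79% lower by that much, beside 3.64% and 5.45% of the member rows. These shares depend on the pseudocount. With 0.1 CPM, 8 member rows (14.55%) were lower, beside 8.52% of all rows, and 4 (7.27%) were higher, beside 8.73%. On plain CPM ratios without a pseudocount, 8 (14.55%) were lower, beside 11.12%, and 5 (9.09%) higher, beside 11.46%. With 0.5 CPM, the 5 rows past the threshold came from 2 genes, both rows of SLC30A1 and 3 of SLC39A10. In bulk RNA, a different make-up of the culture and a different amount of RNA per cell cannot be told apart.

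Levels per length, in RPKM (CPM per kilobase of exon), spanned more than 3 orders of magnitude. Over the row lengths, FTH1 (3937) and FTL (3747) were highest in control cells, followed by TFRC (107.7), SLC39A14 (99.8), SLC30A1 (14.9), HAMP (7.18), SLC39A10 (1.58) and SLC40A1 (1.57). The counting intervals of SLC39A10 (1.45 to 1.73) and SLC40A1 (1.40 to 1.75) overlapped, and those of all other neighbours in this order did not. In BS008-treated cells the order was FTL (5687), FTH1 (4767), SLC30A1 (130.0), TFRC (99.5), SLC39A14 (85.2), HAMP (14.1), SLC40A1 (2.73) and SLC39A10 (0.318). SLC30A1 thus stood above TFRC and SLC39A14 after BS008 and below them in control cells. The FTL level was set over 1410 bases that include 540 intron bases, as described with that gene, and without those bases it was 6073 in control and 9216 in BS008. FTL then stood above FTH1 in both libraries, so the order of the 2 subunits in control rests on that length. The FTH1 level also rests on its row lengths. Its 605-base last row was at 754 RPKM in control, beside 4156 to 12228 in its other rows, and the level was not set again without it.

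**Figure D1:**
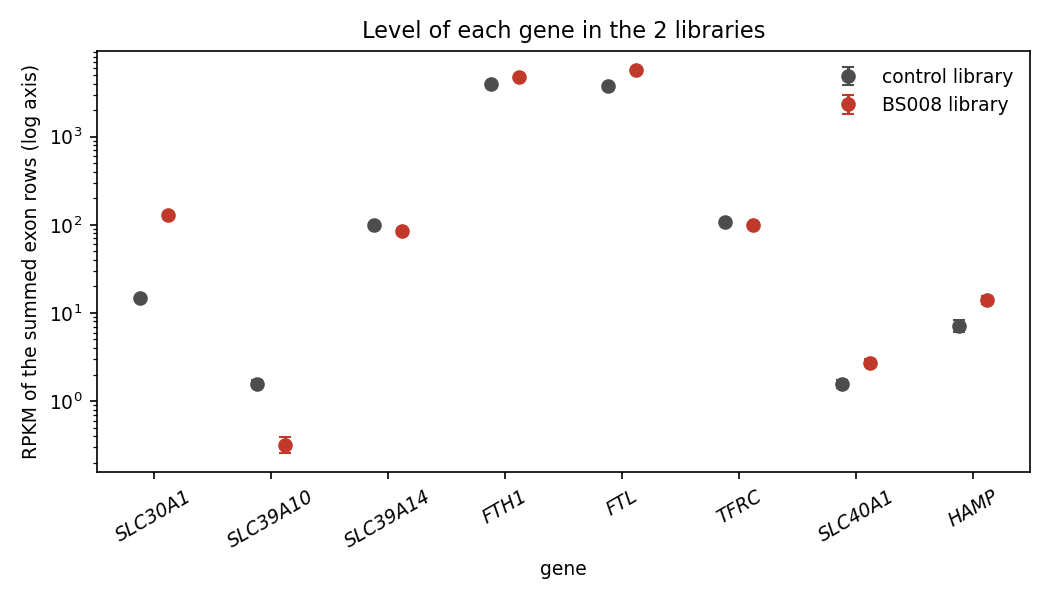
RPKM of the summed exon rows of each gene (log axis) in the control and the BS008 library, 1 point per library, with exact Poisson 95% intervals of the counts that are often smaller than the points. SLC30A1 moved from 14.9 to 130.0 and SLC39A10 from 1.58 to 0.318, and the other 6 genes sat within 2-fold of their control level.

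SLC30A1 encodes ZnT1, the zinc exporter of the plasma membrane. It had 1668 counts in the control library and 14053 in the BS008 library, a log2 ratio of 3.10 and an 8.72-fold higher CPM (95% interval 8.29 to 9.18). The gene has 2 exon rows on the minus strand of chromosome 1. The 767-base first row (chr1:211751333-211752099) went from 321 to 2984 counts, and the 1251-base second row (chr1:211748381-211749631) from 1347 to 11069. Both rows were higher by a similar factor, at log2 ratios of 3.16 and 3.06. The gap between the rows had the length of the intron in GENCODE (1701 bases), while the last exon there is 4722 bases long, so most of the 3′ end of the GENCODE transcript lay outside these rows.

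SLC39A10 encodes ZIP10, a zinc importer of the plasma membrane. It had 485 counts in the control library and 94 in the BS008 library, a log2 ratio of -2.04 and a CPM ratio of 0.201 (0.159 to 0.251). Of its 11 rows on the plus strand of chromosome 2, the first 2 had 0 reads in both libraries, and all 9 others were lower in BS008. With the pseudocount, the third row, of 1019 bases, was past 2-fold, with 116 counts in control and 22 in BS008. So were the 369-base eighth row (chr2:196581361-196581729), with 53 and 4, and the 2819-base last row, with 210 and 54. The fourth to seventh rows passed 2-fold only without the pseudocount. They had 26 and 7, 14 and 3, 25 and 1, and 30 and 2 counts. Their plain CPM ratios were 0.279 (0.102 to 0.659), 0.222 (0.0409 to 0.795), 0.0414 (0.00101 to 0.253) and 0.069 (0.00799 to 0.272). The 7 rows between the third and the last summed to 159 counts in control and 18 in BS008, a CPM ratio of 0.117 (0.0677 to 0.191), against 0.266 (0.194 to 0.361) for the last row alone. The third row lay between them at 0.196 (0.119 to 0.312), an interval that overlaps both. This grouping was not planned and is given as a description. The last row therefore held 43.3% of the gene's reads in control (Wilson interval 38.96 to 47.74) and 57.45% in BS008 (47.35 to 66.96), and these intervals overlapped. At 1.58 and 0.318 RPKM this was the gene of the 8 with the fewest reads in BS008, and 2 of its 9 rows with reads stayed under 10 counts in both libraries.

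SLC39A14 encodes ZIP14, which carries zinc, manganese and iron not bound to transferrin into hepatocytes. Its sum differed little, with 29323 counts in control and 24173 in BS008, a log2 ratio of -0.23 and a CPM ratio of 0.854 (0.839 to 0.868). Its exons were not all alike, and 2 parts of the gene stood apart. The gene carries a pair of mutually exclusive exons of 170 bases, which encode alternative versions of the same stretch of the protein. The upstream row of the pair (chr8:22267459-22267628) had 138 counts in control and 259 in BS008, a log2 ratio of 0.84, while the downstream row (chr8:22269550-22269719) had 527 and 410, a log2 ratio of -0.29. The upstream exon therefore held 20.75% of the pair's reads in control (Wilson interval 17.84 to 24.0) and 38.71% in BS008 (35.1 to 42.46), 17.96 percentage points more, and the intervals did not overlap. Both rows have the same length, so RPKM gives the same shares. Junction reads were not used here, and whether the difference exceeds that between cultures of one condition cannot be told from 1 library each.

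The 5′ end of SLC39A14 differed as well. The first row (chr8:22224762-22224921) had 641 counts in control and 299 in BS008, a log2 ratio of -0.99, and its share of the gene's reads was 2.19% (2.02 to 2.36) and 1.24% (1.10 to 1.38). Without the pseudocount its CPM ratio was 0.483 (0.420 to 0.555), past 2-fold, so this row lies on either side of the threshold depending on that choice. The second row, an alternative first exon, had 5 and 2 reads and the twelfth row, an alternative last exon, had 1 and 0, while the eleventh row, the 3183-base last exon, alone had 21605 and 17616 counts. Apart from the first row and the pair, the 7 rows with at least 10 counts, the eleventh included, had log2 ratios between -0.38 and 0.30. The highest of them was the fourth row, directly upstream of the pair, with 871 counts in control and 1042 in BS008.

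**Figure D2:**
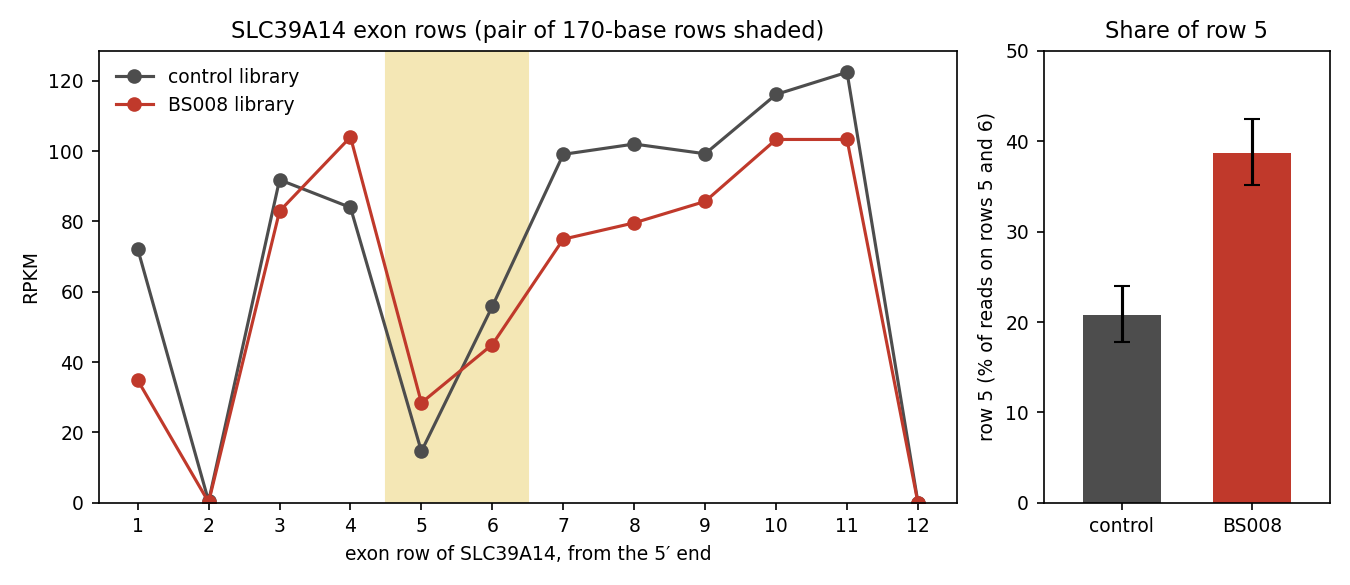
Left, RPKM of the 12 exon rows of SLC39A14 from the 5′ end in the control and the BS008 library, with the pair of 170-base rows (5 and 6) shaded. Right, row 5 as a percentage of the reads on rows 5 and 6, with Wilson 95% intervals. The share was 20.75% in control and 38.71% in BS008.

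FTH1, the ferritin heavy subunit with the ferroxidase site, and FTL, the light subunit that helps mineralise iron, were both modestly higher in BS008-treated cells. FTH1 had 268004 counts in control and 313365 in BS008, a log2 ratio of 0.28 and a CPM ratio of 1.21 (1.20 to 1.22). FTL had 293093 and 429603, a log2 ratio of 0.60 and a CPM ratio of 1.52 (1.51 to 1.53). The 2 subunits thus differed in proportion, and the ratio of FTL to FTH1 counts was 1.09 in control and 1.37 in BS008. Together they took 1.01% of all counted reads in control and 1.39% in BS008. These intervals are narrow because the counts are large, and they say nothing about the spread between cultures.

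Within FTH1, the row that holds the 5′ UTR and its iron-responsive element (chr11:61734784-61735132) had 80465 counts in control and 97121 in BS008, a log2 ratio of 0.32. The next 2 rows had log2 ratios of 0.40 and 0.21. The 605-base last row went the other way, with 25305 and 23352 counts and a log2 ratio of -0.066. This row was also far below its neighbours in level, at 754 RPKM in control against 12228 for the third row. It shares 181 bases with a row on the plus strand, which had 48 and 61 reads. Its share of the gene was 9.44% in control and 7.45% in BS008.

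FTL has 2 rows. The first (chr19:49468566-49468866), which holds the 5′ UTR with the hairpin, had 90854 counts in control and 152698 in BS008, a log2 ratio of 0.80. The second, of 1109 bases, had 202239 and 276905, a log2 ratio of 0.50. That length equals exons 2 to 4 of the GENCODE transcript with the 2 introns between them (540 bases), so the row can hold reads from retained introns. GENCODE lists 25 numbered FTH1P and 16 numbered FTLP copies of the 2 genes, and how reads that match several copies were counted is not given in the sources used here, so the ferritin values are uncertain to that extent.

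TFRC, which takes up transferrin-bound iron, differed least. It had 31643 counts in control and 28224 in BS008, a log2 ratio of -0.11 and a CPM ratio of 0.924 (0.909 to 0.939). Its 19 rows had log2 ratios between -0.30 and 0.02, the narrowest range of any member with more than 3 rows. The 2900-base last row (chr3:195776156-195779055), which covers the 3′ UTR with the 4 matches to the hairpin pattern, had 15699 and 14286 counts, a log2 ratio of -0.086. It held 49.6% of the gene's reads in control (49.06 to 50.16) and 50.6% in BS008 (50.03 to 51.2).

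SLC40A1 exports iron, and its mRNA was low. It had 319 counts in control and 538 in BS008, a log2 ratio of 0.75 and a CPM ratio of 1.75 (1.52 to 2.01). Most of its reads lay in the last 3 of its 8 rows, a split chosen after the row values were seen and given as a description. These rows had 235 counts in control and 440 in BS008, a CPM ratio of 1.94 (1.65 to 2.28), while the first 5 had 84 and 98, a ratio of 1.21 (0.893 to 1.64) whose interval includes 1. The first row, at the 5′ end, had 32 and 38 counts, the second had 6 and 15, the highest ratio of the 8 rows at 2.59 (0.949 to 8.14), and the third had 7 and 11. The fifth row was the only one lower in BS008, with 25 and 16 counts.

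HAMP encodes hepcidin, the hormone that hepatocytes release to limit iron export. It had 169 counts in control and 321 in BS008, a log2 ratio of 0.87 and a CPM ratio of 1.97 (1.63 to 2.38). All 3 rows were higher, with 47 and 83 counts in the first, 56 and 105 in the second and 66 and 133 in the third. Their log2 ratios of 0.60, 0.70 and 0.82 were damped by the pseudocount, since the counts are low.

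The other genes of zinc handling were read from a list of 22, of which 18 had at least 10 counts. Of these, 1 was higher by at least 2-fold, 0 were lower by that much, and the median log2 ratio was -0.043. By row, 11 of 154 (7.14%) were higher by at least 2-fold and 0 lower, beside 3.73% and 3.79% of all rows. Without the pseudocount 1 gene also passed as lower, SLC30A3 (named after its values were seen), which loads zinc into synaptic vesicles, with 103 and 49 counts and a CPM ratio of 0.493 (0.343 to 0.699). The gene that was higher was SLC30A2 (ZnT2, which loads zinc into vesicles), with 4 counts in control and 3529 in BS008, a CPM ratio of 913.5 (356.5 to 3355), which held 8 of the 11 rows. The promoter of SLC30A2 held 3 matches to the metal response element core, a number reached by 2.30% of promoters. TFRC (CPM ratio 0.924) and the iron gene FBXL5 (1.02, named after its values were seen) also held 3. The 4 metallothioneins with a promoter at hand held 3 to 8. The highest in level of the listed zinc genes were SLC39A7, which releases zinc from the endoplasmic reticulum (7287 and 11604 counts, log2 ratio 0.72), and SLC39A1, a plasma membrane importer (8068 and 6414, -0.28). Chosen after their values were seen, MTF1 had 1239 and 2134 counts (0.82), and SLC30A10, a manganese exporter, had 952 and 1687 (0.86).

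All 9 metallothioneins, small cysteine-rich proteins that bind zinc, were at least 2-fold higher in BS008, from 3.14 to 9.47 on the log2 scale, and their summed counts went from 19093 to 899401. MT2A, the highest in level, had 9653 and 436248 counts and MT1G had 2537 and 135609, and near-identical copies may share reads.

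The other genes of iron handling were 24 by list, of which 22 could be checked against the annotation and 21 had at least 10 counts. Of these, 2 were higher and 3 lower by at least 2-fold, and the median log2 ratio was -0.41. By row, 5 of 188 (2.66%) were higher and 4 (2.13%) lower by that much, both below the share among all rows. SMAD7, an inhibitor of the BMP signalling that drives HAMP, had 580 counts in control and 1433 in BS008, a log2 ratio of 1.31. Of its 4 rows with at least 10 counts, 1 was past 2-fold, and their log2 ratios ran from 0.19 to 1.41. ISCU, the scaffold for iron-sulfur clusters, had 2166 and 5086, a log2 ratio of 1.27, with 4 of its 5 rows past 2-fold. HMOX1, which releases iron from heme, was lower, with 1428 and 537 counts and a log2 ratio of -1.32. The 2 others lower by at least 2-fold had few reads and are named after their values were seen. They were HFE2 (hemojuvelin, a BMP co-receptor), with 68 and 8 counts, and TMPRSS6 (the protease that cleaves hemojuvelin), with 75 and 21. At such low counts the calls turn on the pseudocount. On plain CPM ratios TFR2, the second transferrin receptor, also passed 2-fold lower, with 41 and 12 counts and a ratio of 0.303 (0.145 to 0.588), and CYBRD1, a ferric reductase, 2-fold higher, with 7 and 14 counts and a ratio of 2.07 whose interval (0.782 to 6.06) includes 1. Both were also named after their values were seen.

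The highest in RPKM of the 22 genes kept were TF (transferrin), with 156239 and 112349 counts and a log2 ratio of -0.43, and PCBP2, an iron chaperone, with 31103 and 34398 and a log2 ratio of 0.20. The BMP target ID1, left out because it could not be checked, had a higher RPKM (170.7 and 228.1) than PCBP2 (121.4 and 139.0). PCBP1, left out for the same reason, had 130.0 in control and 115.9 in BS008, above PCBP2 in control only. The 2 iron regulatory proteins that bind the hairpins shown above, also named after their values were seen, were ACO1, with 3363 and 2326 counts (-0.48), and IREB2, with 6510 and 4715 (-0.41). NCOA4, the receptor that delivers ferritin to lysosomes, was named in the same way and had 27271 and 19341 (-0.44).

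**Figure D3:**
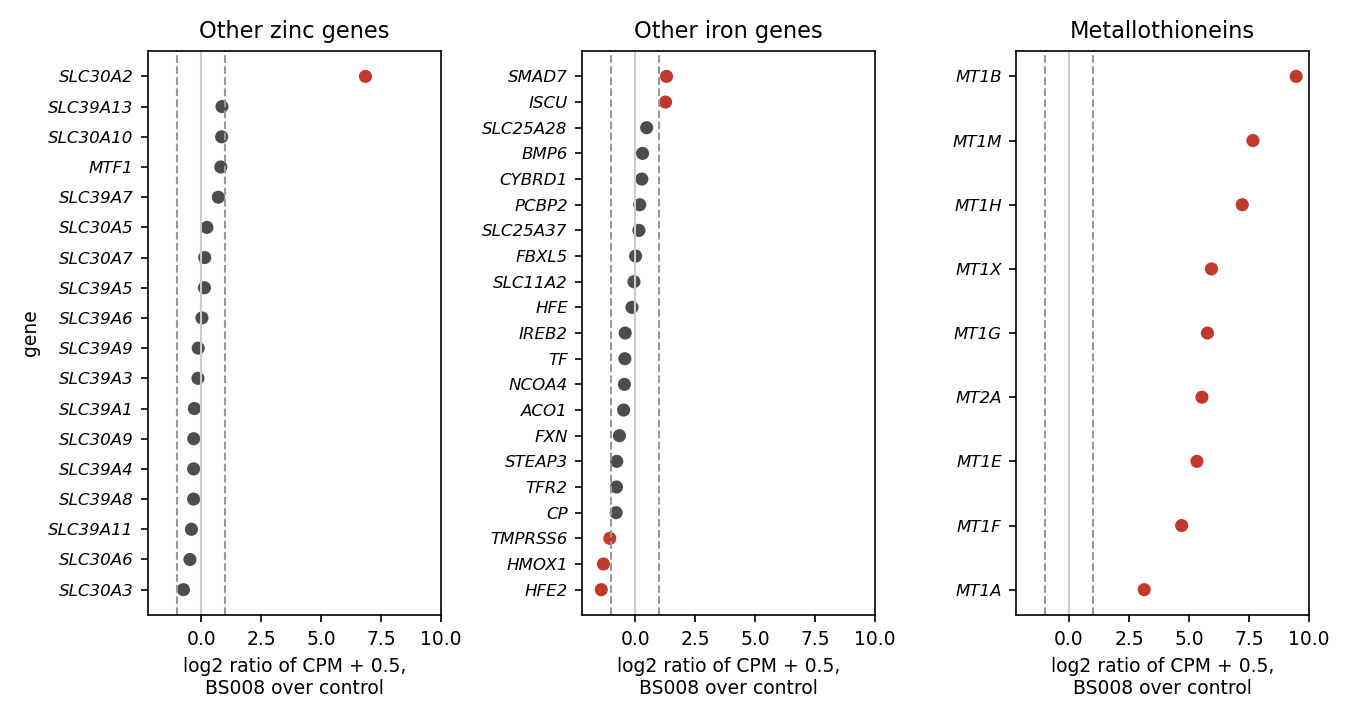
Log2 ratio of CPM + 0.5, BS008 over control, for the other zinc genes, the other iron genes and the metallothioneins with at least 10 counts, 1 point per gene, with dashed lines and red points marking 2-fold. SLC30A2 stood apart from the other zinc genes at 6.86, the iron genes lay between -1.41 and 1.31, and all 9 metallothioneins lay at 3.14 or above.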

How the data were processed

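RNA of Huh-7 cells treated with 0.1% DMSO or 0.1 mM BS008 for 24 h was sequenced from unstranded mRNA libraries, 1 for each condition. The authors deposited, for 239322 exon rows, raw read counts and RPKM values, which scale each count to row length and library total (recomputed here to within 4.7e-06). Per the labels the build is hg19. The aligner, counter, annotation and use of strand are not given in the sources used here. The files name no genes.

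Rows were assigned to genes by hg19 windows and strand. For the members these were given, and for the other genes they came from known positions. Windows were checked by comparing lengths of rows and gaps with exons and introns of GENCODE release 29, without converting coordinates. A gene was kept if at least 1 gap or at least 50% of its rows matched, which left out the single-row genes ID1 and PCBP1. Of the 61 member rows, 45 had the length of an exon of their gene. Counts were summed per gene and divided by the library total. Log2 ratios used a pseudocount of 0.5 CPM, calls used 2-fold and at least 10 counts in either library, and ratios carry exact binomial, shares Wilson and levels exact Poisson 95% intervals. Calling was tested on simulated counts with counting error only and with changes set in rows with many reads. That test does not cover the spread between cultures or rows with few reads.

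The members and lists were chosen with earlier results of these data known. Other listed genes were named if 2-fold different and above a minimum of 100 counts in the higher library, or if among the 2 highest in RPKM of the genes kept from their list. MTF1, SLC30A3, SLC30A10, HFE2, TMPRSS6, TFR2, CYBRD1, ID1, PCBP1, ACO1, IREB2, NCOA4 and FBXL5 were named after their values were seen. TMM factors came from edgeR 4.0.16 in R 4.3.3, and the rest used Python 3.11.15, numpy 2.4.6, pandas 2.3.3 and scipy 1.17.1.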

Additional observations from a re-analysis of the deposited data

How the results depend on the processing

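No member gene changed sign under any of 40 alternatives (other pseudocounts, TMM normalization, a library total without mitochondrial exons, the median of the exon rows), and 30 values moved by less than the counting interval. The median of the rows, which weights every row equally, gave log2 ratios of -0.95 for SLC39A10, under 2-fold, and 0.27 for SLC40A1. It gave 0.26 for FTH1 and 0.65 for FTL. Each row carries the pseudocount of 0.5 CPM, which damps rows with few reads, as in SLC39A10 and SLC40A1. Without it, the SLC39A10 rows with at least 10 counts had CPM ratios between 0.041 and 0.279, all past 2-fold. Leaving out overlapping rows changed nothing by construction, as no member row overlaps another. TMM gave -0.18 for SLC39A14, 0.33 for FTH1, 0.65 for FTL and -0.065 for TFRC, and the total without mitochondrial exons gave 0.30 for FTH1 and 0.62 for FTL.

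With a pseudocount of 0.1 CPM, 4 member rows (7.27%) were at least 2-fold higher and 8 (14.55%) lower, beside 11471 (8.73%) and 11189 (8.52%) of all rows. Without a pseudocount, an alternative chosen after seeing the data, these were 5 (9.09%) and 8 (14.55%), beside 15047 (11.46%) and 14609 (11.12%). With 1 CPM all rows gave 3020 and 3017. A threshold of 1.5-fold gave 9 and 7 member rows, beside 15150 and 18306. Without intron bases, also chosen after seeing the data, the RPKM of FTL was 6073 in control and 9216 in BS008. By RPKM the first row of SLC39A14 held 8.42% of the gene in control and 4.70% in BS008. Of 192 alternatives for 48 other genes, 181 stayed within the counting interval. SLC11A2 changed sign (from -0.046 to 0.0027 under TMM), HFE2 (-0.95) and TMPRSS6 (-0.76) dropped below 2-fold with a pseudocount of 1 CPM, and TFR2 passed it (-1.37) with 0.1 CPM.

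No paired analysis was possible because each condition had 1 library, and so leaving out a replicate was not possible either. Intervals cover counting error only. PCR reads are not independent molecules.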
